A study of Mus musculus with 2 samples.

Results

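Costimulatory receptors and their ligands are the surface molecules through which T cells receive the signals that accompany antigen recognition. The 10 genes described here, Icos, Cd28, Cd83, Cd86, Cd80, Cd40lg, Cd69, Cd2, Tnfsf8 and Tnfsf11, were taken by name from the 28692 genes counted in splenic regulatory T cells (Tregs), the CD4 lineage that needs Foxp3 and holds immune responses in check. All 10 had 30 or more unique molecular identifiers (UMIs, each standing for 1 captured transcript) over both libraries, the minimum for a gene to be called measured. The tested cells were Tregs with low signal of a Pparg reporter (PPARg-low), and they were set against Tregs without it (PPARg-negative). Both came from spleens of male B6 mice carrying the Pparg-Tdt and Foxp3-Gfp reporter alleles, 8 weeks old, with 2 or 3 animals pooled. The deposited data of the PPARg-low library carry pos in their name, and the label low is followed here without that difference being settled. There was 1 library per group and no replicate, so no test between groups was possible. All intervals are 95% intervals that cover counting error only.

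CD28 and ICOS are related receptors: CD28 binds the B7 ligands CD80 and CD86 on antigen presenting cells, and ICOS binds its own ligand, ICOSL. Tregs need CD28 signals to arise and persist, and ICOS is best known on activated, effector Tregs. CD2 and CD69 are a T cell adhesion receptor and an early activation antigen, while CD40 ligand, CD30 ligand (Tnfsf8) and RANK ligand (Tnfsf11) are members of the tumour necrosis factor family that T cells present to other cells. CD83 is a surface protein of mature dendritic cells and of activated lymphocytes.

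The 1619 PPARg-low cells kept held 2901710 UMIs, with a median of 1517 per cell, and the 2633 PPARg-negative cells held 5897260 UMIs, with a median of 2171. Pparg had 43 UMIs in the PPARg-low library and 0 in the PPARg-negative library, and all 8 Treg markers, Foxp3 and Cd4 among them, were detected in both. The libraries differed in the share of UMIs that came from ribosomal protein genes. Cells with under 20% of them, called ribosome-poor, were 951 of the PPARg-low cells (58.7%) and 614 of the PPARg-negative cells (23.3%). The remaining cells, with 20% or more, are called ribosome-rich. In the PPARg-low library ribosome-poor cells had a median depth of 978 UMIs and a median mitochondrial share of 6.80%, against 2294 UMIs and 2.74% in ribosome-rich cells. In the PPARg-negative library ribosome-poor cells had 853 UMIs and 6.92%, against 2455 UMIs and 2.29% in ribosome-rich cells. Each gene is therefore given over all cells and within both kinds of cells. Levels are UMIs of the gene per 1000000 UMIs (CPM) of the same cells, and fewer cells with a transcript cannot be told apart from less RNA per cell in such sums.

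Icos and Cd28 lie on either side of Ctla4, the inhibitory receptor for B7 ligands, on mouse chromosome 1 (mm10, plus strand). Cd28 (ENSMUSG00000026012) spans 60716800 to 60773359, Ctla4 (ENSMUSG00000026011) spans 60887000 to 60915832 and Icos (ENSMUSG00000026009) spans 60977927 to 61000320, all within 283521 bases. The 3 genes, close as they are, had unlike ratios between the libraries. Coding stretches around the loop that contacts the ligand are shown to describe the 3 genes and were not related to those ratios. The stretches are from the GENCODE M21 transcripts, 5′ to 3′, from exon 2 of each gene, and capitals mark the codons of the loop.
Cd28, chr1:60763254-60763313: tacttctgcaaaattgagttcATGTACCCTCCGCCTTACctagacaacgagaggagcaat
Ctla4, chr1:60912692-60912751: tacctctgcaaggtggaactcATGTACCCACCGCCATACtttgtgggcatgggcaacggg
Icos, chr1:60993962-60994021: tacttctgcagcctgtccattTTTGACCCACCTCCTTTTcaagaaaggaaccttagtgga
The loop codons of Cd28 and Ctla4 encode the same residues, whereas Icos keeps the central prolines and differs on both sides of them. The cytoplasmic tails carry the tyrosine motif that recruits phosphatidylinositol 3-kinase, shown in stretches from exon 4 of each gene, again in capitals.
Cd28, chr1:60769672-60769725: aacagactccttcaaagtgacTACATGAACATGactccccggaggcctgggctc
Ctla4, chr1:60914625-60914678: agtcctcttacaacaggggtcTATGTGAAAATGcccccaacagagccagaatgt
Icos, chr1:60995539-60995592: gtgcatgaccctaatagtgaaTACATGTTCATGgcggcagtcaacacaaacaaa

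Over all cells, 6 of the 10 genes stood higher in PPARg-low Tregs and 1 stood lower. A call needed a difference of 1.5-fold or more, up or down, and an interval that left out 1. Of the 9224 genes measured over both libraries, 24.2% were higher and 4.47% lower by that rule, 28.7% together. Cd83 stood highest at 7.77-fold, followed by Icos, Cd80, Tnfsf11, Cd2 and Cd69, and Tnfsf8 was the gene that was lower. The median log2 ratio was 0.90 over the 10 genes and 0.29 over all measured genes. Within ribosome-poor cells the picture was another one: 2 genes were higher (Cd83 and Tnfsf11) and 2 lower (Cd40lg and Tnfsf8), with medians of -0.05 over the 10 genes and 0.02 over all 6540 genes measured there, of which 6.82% were higher and 5.40% lower, 12.2% together. Within ribosome-rich cells 4 were higher (Icos, Cd83, Cd80 and Tnfsf11) and 1 lower (Tnfsf8), where 17.2% of 8564 genes were higher and 3.92% lower, 21.1% together. Cd83, Tnfsf11 and Tnfsf8 kept their calls in both kinds of cells, although the call of Tnfsf11 in ribosome-poor cells had an interval that began just above 1. The libraries also differed in ribosomal share inside each kind of cell: cells with 20 to 30% gave 64.0% of the ribosome-rich UMIs in the PPARg-low library and 12.05% in the PPARg-negative library. Levels were therefore also compared with the bins of ribosomal share weighed alike, as they are in the PPARg-low library. Within ribosome-rich cells that left Cd83 higher and Tnfsf8 lower and ended the calls of Icos, Cd80 and Tnfsf11. Within ribosome-poor cells it left Cd83 higher and Cd40lg and Tnfsf8 lower. Over all cells it left 3 of the 7 calls, those of Cd83, Tnfsf11 and Tnfsf8, and Cd40lg was then called lower too. Only the 10 genes were weighed so, and the share of all genes that would be called was not computed.

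**Figure D1:**
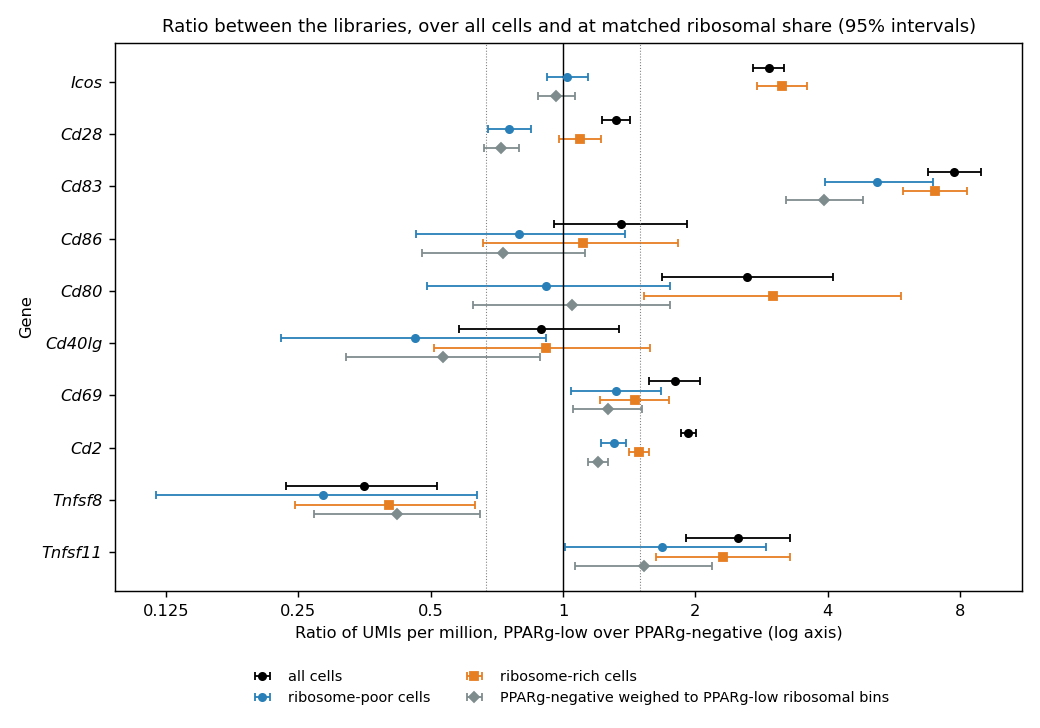
Ratio of CPM in the PPARg-low library over the PPARg-negative library (x axis, log scale) for each of the 10 genes (y axis), over all cells, within ribosome-poor and ribosome-rich cells, and with PPARg-negative cells weighed to the ribosomal shares of the PPARg-low library. Bars are 95% intervals and dotted lines mark a ratio of 1.5 in either direction; Icos lies at 2.94 over all cells and at 1.02 within ribosome-poor cells, while Cd83 stays between 3.93 and 7.77.

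Icos, the receptor of ICOSL, had 1403 UMIs or 484 CPM in PPARg-low cells, against 971 UMIs or 165 CPM in PPARg-negative cells, a ratio of 2.94 (2.70 to 3.19). In ribosome-poor cells it stood at 797 CPM in PPARg-low cells and 779 CPM in PPARg-negative cells, a ratio of 1.02 (0.917 to 1.14). In ribosome-rich cells it stood at 276 CPM in PPARg-low cells and 87.8 CPM in PPARg-negative cells, a ratio of 3.15 (2.77 to 3.59). With the ribosomal shares weighed alike, the ratio within ribosome-rich cells was 1.04 (0.895 to 1.20) and over all cells 0.966 (0.878 to 1.06), on the other side of 1. With the shares so weighed the Icos levels of the libraries thus overlapped within counting error in both kinds of cells taken as a whole. They did not in every bin: in cells with 30 to 40% ribosomal UMIs the ratio was 2.83 (2.17 to 3.68).

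Cd28, the receptor of CD80 and CD86, had 1172 UMIs or 404 CPM in PPARg-low cells, against 1807 UMIs or 306 CPM in PPARg-negative cells. Its ratio of 1.32 (1.22 to 1.42) was under the size needed for a call. In ribosome-poor cells Cd28 lay on the other side of 1, at 612 CPM in PPARg-low cells and 811 CPM in PPARg-negative cells, a ratio of 0.755 (0.674 to 0.847). In ribosome-rich cells it stood at 266 CPM in PPARg-low cells and 243 CPM in PPARg-negative cells, a ratio of 1.09 (0.982 to 1.22) whose interval held 1. With the ribosomal shares weighed alike, the ratio was 0.724 (0.660 to 0.793). Cd28 and Icos, paralogues from 1 locus, therefore did not move as a pair between these libraries.

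Cd80 and Cd86 encode the B7 ligands, which are best known on antigen presenting cells, and both had few transcripts. Cd80 (ENSMUSG00000075122, chromosome 16, 38455561 to 38496335, plus strand) had 49 UMIs or 16.9 CPM in PPARg-low cells, against 38 UMIs or 6.44 CPM in PPARg-negative cells, a ratio of 2.62 (1.68 to 4.11). Cd86 (ENSMUSG00000022901, chromosome 16, 36603869 to 36666081, minus strand) had 58 UMIs or 19.99 CPM in PPARg-low cells, against 87 UMIs or 14.8 CPM in PPARg-negative cells, a ratio of 1.35 (0.955 to 1.91). In ribosome-rich cells Cd80 had 20 UMIs in each library and a ratio of 3.0 (1.53 to 5.87), and in ribosome-poor cells its ratio was 0.916 (0.492 to 1.75). With the ribosomal shares weighed alike its ratio was 1.05 (0.625 to 1.75) over all cells and 1.42 (0.645 to 3.13) within ribosome-rich cells, and neither was called. Cd86 passed the rule in neither kind of cell, at 0.796 (0.463 to 1.39) in ribosome-poor and 1.11 (0.658 to 1.82) in ribosome-rich cells, nor with the shares weighed alike, at 0.731 (0.477 to 1.12).

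Cd83 (ENSMUSG00000015396, chromosome 13, 43784775 to 43803132, plus strand) had 994 UMIs or 343 CPM in PPARg-low cells, against 260 UMIs or 44.1 CPM in PPARg-negative cells, a ratio of 7.77 (6.77 to 8.94). It stood at 450 CPM in PPARg-low and 86.9 CPM in PPARg-negative ribosome-poor cells, a ratio of 5.19 (3.94 to 6.94). In ribosome-rich cells it stood at 271 CPM in PPARg-low and 38.7 CPM in PPARg-negative cells, a ratio of 7.004 (5.93 to 8.30). The PPARg-low library was thus above the PPARg-negative library at either ribosomal share, and weighing these alike left 3.93 (3.21 to 4.82).

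Because CD83, CD80 and CD86 are also proteins of B cells, myeloid cells and dendritic cells, markers of those cells were counted in the same libraries. Of the B cell list, 7 of 8 genes were detected in each library and summed to 46.9 CPM in PPARg-low and 37.0 CPM in PPARg-negative cells. Of the myeloid list, 6 of 9 genes in the PPARg-low and 4 of 9 in the PPARg-negative library summed to 18.95 CPM in PPARg-low and 3.22 CPM in PPARg-negative cells. Of the dendritic cell list, 4 of 9 genes summed to 527 CPM in PPARg-low cells and 6 of 9 to 132 CPM in PPARg-negative cells, and Cd74 alone gave 520.04 CPM in PPARg-low cells and 121 CPM in PPARg-negative cells. The part of these cells in the ratios was not tested beyond leaving out those with most such UMIs. On the dendritic cell list Itgax, Flt3 and Clec9a were at 0 UMIs in both libraries. Zbtb46 had 7 UMIs in PPARg-low cells and 1 in PPARg-negative cells, while Xcr1 and Siglech had 0 in PPARg-low cells, against 2 and 1 in PPARg-negative cells. H2-Aa and H2-Eb1, which encode class II chains, had 3 and 10 UMIs in PPARg-low cells, against 32 and 31 in PPARg-negative cells. Without the 17 PPARg-low and 16 PPARg-negative cells that held 2 or more UMIs of a list of 12 antigen presenting cell markers, Cd83 stood at 7.82-fold, Cd80 at 2.65-fold and Cd86 at 1.34-fold over all cells. The 102 PPARg-low cells with any such UMI had ratios over the others of 0.648 (0.486 to 0.849) for Cd83 and 0.965 (0.252 to 2.65) for Cd80. For Cd86 that ratio was 1.99 (0.861 to 4.10). Within ribosome-poor PPARg-low cells it was 1.16 (0.228 to 3.71) for Cd86, and within ribosome-rich ones 3.54 (1.14 to 9.40), from 6 and 17 UMIs.

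Cd2 and Cd69 were higher in the PPARg-low library over all cells but passed the rule in neither kind of cell. Cd2, the adhesion receptor that binds CD48 in mice, had 5037 UMIs or 1736 CPM in PPARg-low cells, against 5311 UMIs or 901 CPM in PPARg-negative cells, a ratio of 1.93 (1.85 to 2.004). Its ratio was 1.30 (1.22 to 1.39) in ribosome-poor cells and 1.49 (1.41 to 1.57) in ribosome-rich cells, and both intervals lay above 1. Cd69, whose protein retains lymphocytes in tissue by opposing the egress receptor S1PR1, had 424 UMIs or 146 CPM in PPARg-low cells, against 480 UMIs or 81.4 CPM in PPARg-negative cells, a ratio of 1.80 (1.57 to 2.05). Divided by the median ratio of all genes, that of Cd69 was 1.47, under the size needed for a call. Within ribosome-poor cells Cd69 had a ratio of 1.32 (1.04 to 1.67) and within ribosome-rich cells one of 1.46 (1.22 to 1.75). With the ribosomal shares weighed alike over all cells, Cd2 stood at 1.20 (1.14 to 1.27) and Cd69 at 1.26 (1.06 to 1.51), and neither was called.

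The 3 ligands of the tumour necrosis factor family went different ways. Tnfsf11 (ENSMUSG00000022015, chromosome 14, 78277445 to 78308043, minus strand), which encodes RANK ligand, had 123 UMIs or 42.4 CPM in PPARg-low cells, against 100 UMIs or 17.0 CPM in PPARg-negative cells, a ratio of 2.50 (1.90 to 3.29). Tnfsf8 (ENSMUSG00000028362, chromosome 4, 63831308 to 63861347, minus strand), which encodes CD30 ligand, had 32 UMIs or 11.03 CPM in PPARg-low cells, against 184 UMIs or 31.2 CPM in PPARg-negative cells, a ratio of 0.353 (0.235 to 0.517). Cd40lg (ENSMUSG00000031132, chromosome X, 57212143 to 57224042, plus strand), the B cell helper ligand, had 35 UMIs or 12.1 CPM in PPARg-low cells, against 80 UMIs or 13.6 CPM in PPARg-negative cells, a ratio of 0.889 (0.580 to 1.34). RANK ligand transcripts were thus higher and CD30 ligand transcripts lower in the PPARg-low library, while Cd40lg was not called over all cells as they are. Tnfsf11 had ratios of 1.68 (1.009 to 2.90) in ribosome-poor and 2.32 (1.63 to 3.28) in ribosome-rich cells. Tnfsf8 had ratios of 0.284 (0.119 to 0.636) in ribosome-poor and 0.402 (0.245 to 0.630) in ribosome-rich cells. Among ribosome-poor cells Cd40lg had 17 UMIs in the PPARg-low library and 21 in the PPARg-negative library, a ratio of 0.460 (0.228 to 0.916) that turned to 1.76 without cells of over 5% mitochondrial UMIs, and 0.915 (0.508 to 1.57) in ribosome-rich cells. With the ribosomal shares weighed alike over all cells, Tnfsf11 stood at 1.52 (1.07 to 2.18), Tnfsf8 at 0.419 (0.272 to 0.647) and Cd40lg at 0.532 (0.320 to 0.885), which is called lower. Within ribosome-rich cells so weighed Tnfsf11 had 1.49 (0.964 to 2.31) and Tnfsf8 0.465 (0.279 to 0.777), and within ribosome-poor cells Tnfsf11 had 1.56 (0.883 to 2.75) and Tnfsf8 0.345 (0.157 to 0.757).

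**Figure D2:**
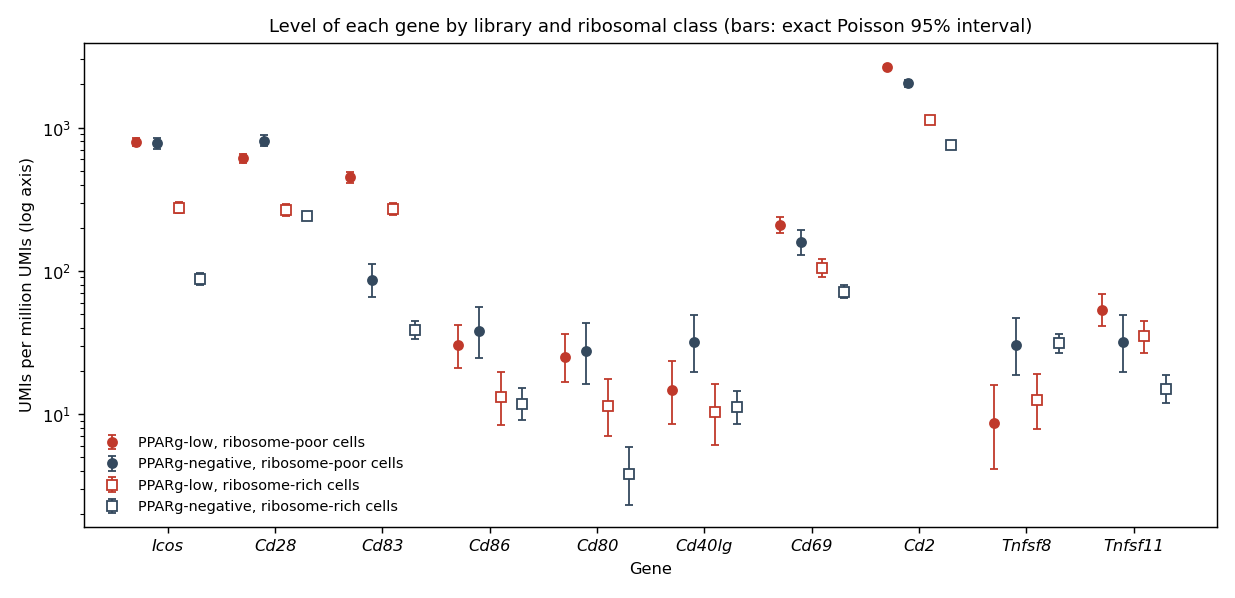
Level of each gene (y axis, CPM on a log scale) in PPARg-low and PPARg-negative ribosome-poor cells (filled circles) and ribosome-rich cells (open squares), with exact Poisson 95% intervals. Most genes stand higher in ribosome-poor cells of both libraries, as Icos does at 797 against 276 CPM in PPARg-low and 779 against 87.8 CPM in PPARg-negative cells; Tnfsf8 does not.

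Set against ribosome-rich cells of the same library, ribosome-poor cells had a larger share of their UMIs in most of these genes, as CPM. In the PPARg-low library 8 of 10 were higher and 0 lower, where 27.8% of 7419 genes were higher and 8.32% lower, 36.1% together. In the PPARg-negative library 9 of 10 were higher and 0 lower, where 36.8% of 8255 genes were higher and 6.42% lower, 43.2% together. The median log2 ratio of the 10 genes was 1.06 in the PPARg-low library and 1.47 in the PPARg-negative library, beside 0.31 over all genes in PPARg-low cells and 0.51 in PPARg-negative ones. Relative to that median, 5 of the 10 were higher in PPARg-low cells and 8 of the 10 in PPARg-negative cells, where 14.5% and 17.9% of all genes were. Without cells of over 5% mitochondrial UMIs, which removes most ribosome-poor cells, 5 of 7 measured genes were higher in PPARg-low cells and 4 of 9 in PPARg-negative cells, where 17.2% and 22.6% of all genes were. Per cell the picture was flatter, since ribosome-poor cells were shallower: mean UMIs per cell were higher in ribosome-poor cells for 5 of the 10 genes in the PPARg-low library and for 6 in the PPARg-negative library. Cd83 averaged 0.547 UMIs per ribosome-poor and 0.710 per ribosome-rich cell in the PPARg-low library, and 0.0928 per ribosome-poor and 0.101 per ribosome-rich cell in the PPARg-negative library. Icos averaged 0.967 UMIs per ribosome-poor and 0.723 per ribosome-rich PPARg-low cell, and 0.832 per ribosome-poor and 0.228 per ribosome-rich PPARg-negative cell. The part of depth and mitochondrial share, which move with the ribosomal share, was not tested.

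For Icos the ratio of ribosome-poor over ribosome-rich cells was 2.88 (2.58 to 3.23) in the PPARg-low library. In the PPARg-negative library Icos had the steepest difference of the 10 genes, at 779 CPM in ribosome-poor and 87.8 CPM in ribosome-rich cells, a ratio of 8.87 (7.81 to 10.1). Cd80 likewise stood at 2.19 (1.20 to 4.09) in the PPARg-low library and 7.19 (3.59 to 14.3) in the PPARg-negative library. The gaps were narrower for Cd28, at 2.30 (2.04 to 2.59) in the PPARg-low library and 3.33 (3.01 to 3.69) in PPARg-negative cells, and for Cd2, at 2.35 (2.22 to 2.49) in the PPARg-low library and 2.68 (2.52 to 2.86) in the PPARg-negative library. Tnfsf8 alone among the 10 was called in neither library, at 0.688 (0.291 to 1.51) in the PPARg-low library and 0.974 (0.580 to 1.55) in PPARg-negative cells. No test of the difference between the libraries in these ratios was possible.

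In finer bins of ribosomal share, Icos and Cd28 were lower at each step up in both libraries. Icos stood at 1042, 651, 341 and 181 CPM in PPARg-low cells with under 10, 10 to 20, 20 to 30 and 30 to 40% ribosomal UMIs. In PPARg-negative cells it stood at 1063, 730, 383 and 63.7 CPM in the same bins and at 30.6 CPM in cells with 40% or more. The libraries lay within counting error of each other in the first 3 bins, with ratios of 0.980, 0.892 and 0.888 whose intervals held 1, and apart in the fourth, at 2.83 (2.17 to 3.68). The fourth bin held 210 PPARg-low and 967 PPARg-negative cells, and the last bin, with 23 PPARg-low and 762 PPARg-negative cells, was not compared. The ratio of 3.15 over ribosome-rich cells thus sets PPARg-low cells that lie mostly at 20 to 30% against PPARg-negative cells that lie mostly above. The weighed ratio of 1.04 given above is an average over bins with unlike ratios, 0.888 at 20 to 30% and 2.83 at 30 to 40%.

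Cd83 was called higher in the PPARg-low library in all 4 bins that could be compared, at 2.47 (1.56 to 4.13), 6.27 (4.44 to 9.08), 3.65 (2.70 to 5.01) and 5.41 (4.18 to 7.01). Its level in PPARg-low cells was 510, 415, 289 and 256 CPM from the lowest to the fourth bin, against 206, 66.2, 79.2 and 47.4 CPM in PPARg-negative cells. The span over these bins was thus smaller for Cd83 than for Icos in the PPARg-low library. Cd28 had ratios of 0.750, 0.686 and 0.675 in the first 3 bins, each with an interval below 1, and of 0.923 (0.759 to 1.11) in the fourth. Cd2 had ratios of 1.24, 1.20, 1.21 and 1.11 and Cd69 of 1.32, 1.21, 1.34 and 1.19, none of which was called. In the second bin Tnfsf8 had 4 UMIs in PPARg-low cells and 19 in PPARg-negative cells, a ratio of 0.163 (0.0403 to 0.490), and in the third 10 in PPARg-low cells and 15 in PPARg-negative cells, a ratio of 0.376 (0.151 to 0.895). It was called in neither of the others. The first bin had 6 PPARg-low UMIs and 1 PPARg-negative UMI, a ratio of 1.35 (0.164 to 62.1). The fourth had 10 PPARg-low and 77 PPARg-negative UMIs, a ratio of 0.556 (0.256 to 1.08).

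**Figure D3:**
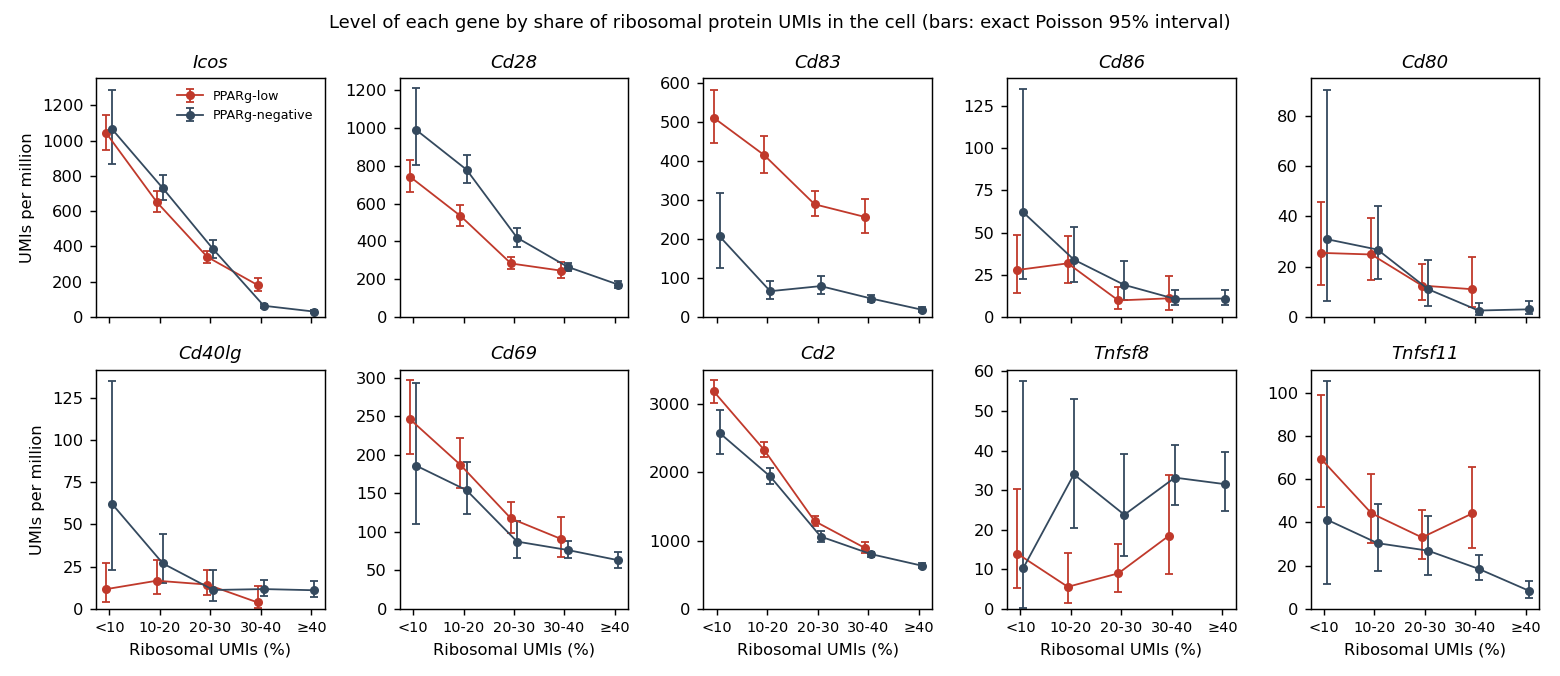
Level of each gene (y axis, CPM) by share of ribosomal protein UMIs in the cell (x axis, %), for PPARg-low and PPARg-negative cells, with exact Poisson 95% intervals and only bins of 50 or more cells. Icos of both libraries overlaps up to 30% and separates at 181 CPM in PPARg-low and 63.7 CPM in PPARg-negative cells in the bin of 30 to 40%, Cd83 is higher in PPARg-low cells throughout, and Tnfsf8 does not fall with the ribosomal share in PPARg-negative cells.

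Shares of cells with a transcript were compared after each cell was thinned to 750 UMIs. That left 1381 PPARg-low and 2394 PPARg-negative cells and dropped 238 and 239 shallower ones. Of those dropped, 230 PPARg-low and 200 PPARg-negative cells were ribosome-poor. Shares in ribosome-poor cells thus rest on the 721 PPARg-low and 414 PPARg-negative cells that were deep enough. Icos transcripts were present in 28.6% (26.2 to 31.1%) of the PPARg-low cells and in 11.2% (9.92 to 12.5%) of the PPARg-negative ones. Cd83 was present in 20.3% (18.3 to 22.6%) of PPARg-low cells, against 3.13% (2.47 to 3.91%) of PPARg-negative cells. Cd2 was present in 71.2% (68.7 to 73.6%) of PPARg-low cells, against 46.9% (44.9 to 48.9%) of PPARg-negative cells. Where the ribosomal share was low, Icos was present in 40.5% (36.9 to 44.2%) of cells in the PPARg-low library and 38.9% (34.2 to 43.8%) in the PPARg-negative library. Cd83 was present there in 23.0% (19.997 to 26.3%) of PPARg-low cells, against 5.07% (3.17 to 7.65%) of PPARg-negative cells. The shares thus repeat the split seen in the levels, with Icos alike and Cd83 unlike in ribosome-poor cells. Among ribosome-poor cells Cd28 was found in 35.2% (31.7 to 38.8%) of the PPARg-low library, against 47.6% (42.7 to 52.5%) of the PPARg-negative library. Without thinning, Icos, Cd28 and Cd83 were detected in 46.9, 46.1 and 32.6% of PPARg-low cells, against 20.6, 43.3 and 7.10% of PPARg-negative cells.

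Tnfsf8 was detected in 0.652% (0.298 to 1.23%) of thinned PPARg-low cells, against 2.34% (1.77 to 3.03%) of thinned PPARg-negative cells. Tnfsf11 was detected in 3.48% (2.57 to 4.58%) of PPARg-low cells, against 1.38% (0.951 to 1.93%) of PPARg-negative cells. Cd80, Cd86 and Cd40lg were found in 1.67, 1.52 and 1.01% of PPARg-low cells, against 0.668, 1.46 and 1.38% of PPARg-negative cells, with overlapping intervals for each of these 3. Free RNA was gauged from genes that Tregs should lack. Cd79a, of B cells, appeared in 0.217% (0.0448 to 0.634%) of PPARg-low cells, against 0.0835% (0.0101 to 0.301%) of PPARg-negative cells, and Lyz2, of myeloid cells, in 0.145% of PPARg-low and 0.0418% of PPARg-negative cells. The Tnfsf8 and Cd40lg (0.555 to 1.70%) shares of PPARg-low cells overlapped with that of Cd79a, so they cannot be told from that background. Other such genes stood higher: Cd79b, of B cells, had 31.7 CPM in PPARg-low and 22.4 CPM in PPARg-negative cells. Cd8b1, of CD8 T cells, had 30.7 CPM in PPARg-low and 24.9 CPM in PPARg-negative cells. In PPARg-low cells both lay above Cd80, Cd86, Cd40lg and Tnfsf8, so Cd79a and Lyz2 may understate the background. A thinned PPARg-low cell held transcripts of 1.66 of the 10 genes on average and a PPARg-negative cell of 0.97, and among ribosome-poor cells the means were 2.04 in the PPARg-low and 1.88 in the PPARg-negative library.

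Detection of Cd28 and Cd83 in ribosome-poor cells with and without Icos is given next, and the intervals overlapped in each of these comparisons. Among PPARg-low ribosome-poor cells, Cd28 was found in 37.0% (31.4 to 42.8%) of cells with Icos and 34.0% (29.6 to 38.7%) of cells without, and Cd83 in 21.9% (17.3 to 27.1%) of cells with Icos and 23.8% (19.8 to 28.1%) of cells without. In PPARg-negative ribosome-poor cells Cd28 was found in 54.7% (46.6 to 62.5%) of cells with Icos and 43.1% (36.9 to 49.4%) of cells without. Cd86 was found in 5 of 21 PPARg-negative ribosome-poor cells with Cd83, or 23.8% (8.22 to 47.2%), and in 3.31% (1.77 to 5.59%) of those without it. This pair, which rests on 5 cells, is named after its values were seen.

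Clusters built without the 10 genes showed where in these Tregs each was found, and they were compared between libraries only where both had 50 or more cells. A cluster led by Gzmb, Ccr2, Ccr3 and Itgae had Icos at 1082 CPM (923 to 1261) in its PPARg-low and 1135 CPM (945 to 1351) in its PPARg-negative cells, with Cd83 at 98.9 CPM in PPARg-low and 36.0 CPM in PPARg-negative cells. An effector Treg-like cluster led by Il10, Nkg7 and Il1r2, with 226 PPARg-low cells, had Cd83 at 618 CPM (551 to 690), above its level in any other cluster described, beside Icos at 438 CPM (382 to 500). Among PPARg-low cells Icos and Cd83 were thus highest in different clusters, whose median ribosomal shares over both libraries were 11.2 and 12.3%. In the resting Treg-like clusters of PPARg-negative cells, led by Ly6c1, Dapl1 and Satb1 or by Bcl2, Gpr83 and Socs2, Icos stood at 32.5 and 46.0 CPM and Cd83 at 16.2 and 23.0 CPM.

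A cluster of 62 PPARg-negative cells led by Gadd45g, Dgat2 and Icam1 differed from the others of high ribosomal share. It had Cd69 at 324 CPM (237 to 432) and Cd83 at 254 CPM (178 to 351), beside Icos at 35.2 CPM (11.4 to 82.2) and Cd28 at 106 CPM (59.2 to 174). Its median ribosomal share was 36.8%, so here high Cd69 and Cd83 came with a high ribosomal share. In a cluster led by Tbc1d4, Id3 and Cst7, Tnfsf8 stood at 35.0 CPM (20.8 to 55.3) in PPARg-low and 56.1 CPM (37.0 to 81.6) in PPARg-negative cells, and Tnfsf11 at 50.6 CPM in PPARg-low and 49.9 CPM in PPARg-negative cells. In the Gzmb cluster no Tnfsf8 UMI was found in either library, which allows up to 24.3 CPM in PPARg-low and 33.2 CPM in PPARg-negative cells.

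Within a cluster the ratio between the libraries could be taken in 4. Cd83 was higher in PPARg-low cells in 3 of them, at 1.72 (1.06 to 2.99) in the effector Treg-like cluster led by Pdcd1 and Klrg1, 2.69 (1.54 to 4.77) in the cluster led by Ccl5 and Ccr2, and 2.30 (1.75 to 3.04) in the Tbc1d4 cluster. In the Gzmb cluster it was 2.75 (0.875 to 11.4), from 15 PPARg-low and 4 PPARg-negative UMIs. Icos went the other way in the Pdcd1 cluster, at 601 CPM in 738 PPARg-low and 1171 CPM in 52 PPARg-negative cells, a ratio of 0.513 (0.410 to 0.649). It was called in none of the other three, at 0.728 (0.606 to 0.871), 1.29 (0.999 to 1.68) and 0.953 (0.751 to 1.21) in the Ccl5, Tbc1d4 and Gzmb clusters. Cd69 was higher in PPARg-low cells of the Ccl5 cluster, at 1.68 (1.20 to 2.34), and of the Tbc1d4 cluster, at 2.09 (1.34 to 3.33). It was not called in the Pdcd1 cluster, at 0.733 (0.431 to 1.34), or in the Gzmb cluster, at 1.20 (0.536 to 2.81).

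**Figure D4:**
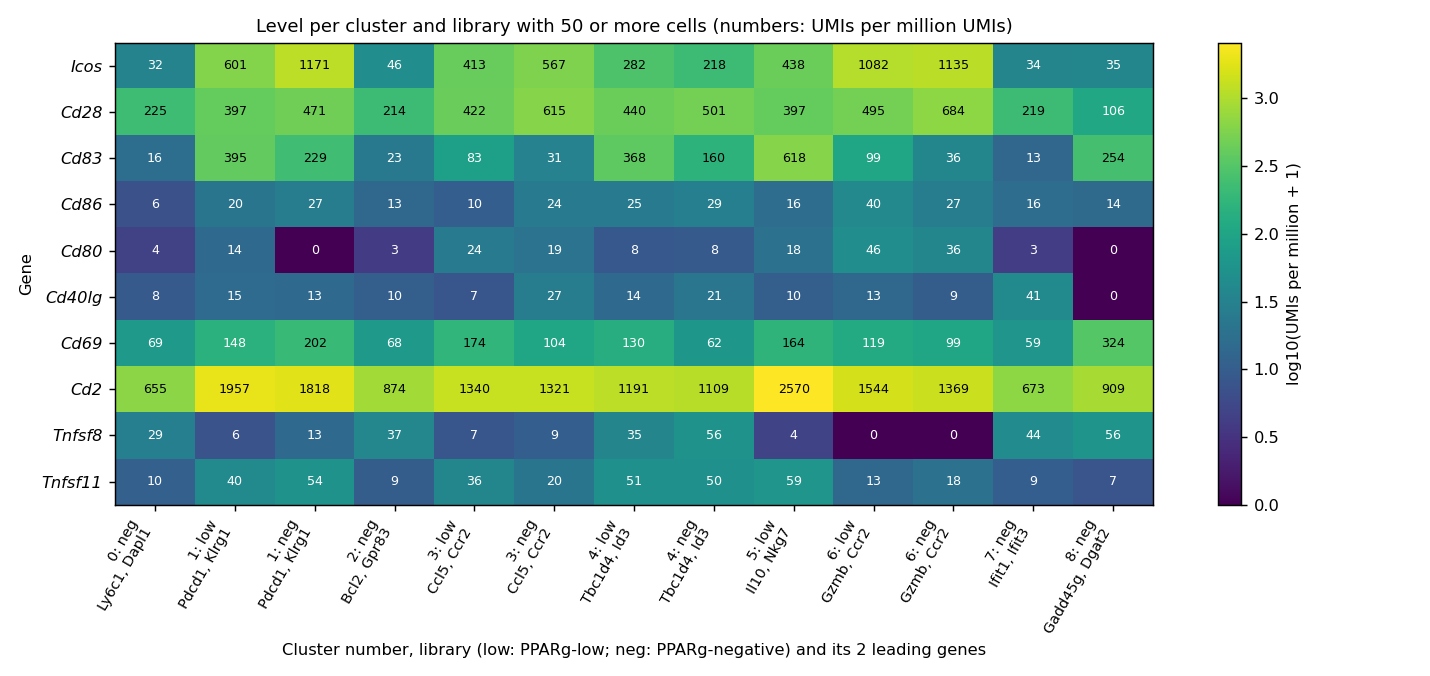
Level of each gene (rows, with CPM printed and coloured on a log10 scale) in each cluster and library with 50 or more cells (columns, with the 2 leading genes of the cluster). Icos peaks in the Pdcd1 cluster of PPARg-negative cells at 1171 CPM and in the Gzmb cluster at 1082 CPM in PPARg-low and 1135 CPM in PPARg-negative cells, and Cd83 in the Il10 cluster at 618 CPM.

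Klrg1 transcripts were found in 899 of the 1619 PPARg-low cells and in 141 of the 2633 PPARg-negative cells. In ribosome-rich PPARg-low cells Icos stood at 340 CPM in cells with Klrg1 and 206 CPM in cells without, a ratio of 1.65 (1.36 to 1.996), while Cd28 had a ratio of 0.724 (0.600 to 0.873). In ribosome-poor PPARg-low cells the ratio with Klrg1 over without was 1.08 (0.941 to 1.24) for Icos and 0.532 (0.312 to 0.904) for Tnfsf11. In PPARg-negative cells Icos was higher with Klrg1 in both kinds, though in ribosome-poor cells by less than the size for a call, with ratios of 1.45 (1.20 to 1.76) in ribosome-poor and 5.88 (4.43 to 7.69) in ribosome-rich cells. The ribosomal shares of cells with and without Klrg1 were not weighed alike. The 41 PPARg-low cells with a Pparg transcript had ratios over the others of 1.09 (0.792 to 1.46) for Icos and 0.998 (0.669 to 1.43) for Cd83, so no difference was detectable at this depth.

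The receptors, ligands and signalling genes of the same families gave the setting of the 10. Klf2 and S1pr1, which belong to none of these families and are on the list of resting Treg markers, were counted with them. Of these 51 partner genes in all, 41 were measured. Over all cells 17 stood higher in PPARg-low Tregs and 4, Klf2 and S1pr1 among them, stood lower. That is 41.5% and 9.76% of the measured ones, where 24.2% of all genes were higher and 4.47% lower. Without ribosomal and mitochondrial UMIs in the total, 9 were higher and 6 lower, where 12.8% of all genes were higher and 8.20% lower. Dividing by the median ratio of all genes gave the same counts of partner genes, where 11.9% of all genes were higher and 8.78% lower. The median log2 ratio of the measured partner genes was 0.49, against 0.29 over all genes. Within ribosome-poor cells 9 of 38 were higher and 7 lower, where 6.82% of all genes were higher and 5.40% lower. Within ribosome-rich cells 11 of 40 were higher and 4 lower, where 17.2% of all genes were higher and 3.92% lower, and the partner genes were not weighed by ribosomal share.

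Pdcd1, which encodes PD-1, an inhibitory receptor of the CD28 family, had the highest ratio of the partner genes. It stood at 463 CPM in PPARg-low cells and 33.2 CPM in PPARg-negative cells, a ratio of 13.9 (11.98 to 16.3). Ctla4 stood at 629 CPM in PPARg-low cells and 162 CPM in PPARg-negative cells, a ratio of 3.88 (3.59 to 4.20), and unlike Icos it was also higher within ribosome-poor cells, at 1.92 (1.71 to 2.16). Of the 3 genes whose sequences are shown above, Ctla4 was thus called in both kinds of cells as they are, Icos in ribosome-rich cells until the shares were weighed alike, and Cd28 in neither. Btla, a further inhibitory receptor, had a ratio of 1.07 (0.845 to 1.36). Among the ligands of the B7 family, Pdcd1lg2 had a ratio of 4.09 (3.09 to 5.46), Icosl, from 26 PPARg-low and 28 PPARg-negative UMIs, one of 1.89 (1.06 to 3.34) and Cd274 one of 1.72 (1.08 to 2.70).

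The costimulatory receptors of the tumour necrosis factor family were higher for 4 of 6 measured members, where 24.2% of all genes were. Tnfrsf9 (4-1BB) had a ratio of 8.05 (7.50 to 8.66), Tnfrsf4 (OX40) of 5.002 (4.80 to 5.21) and Tnfrsf18 (GITR) of 3.19 (3.04 to 3.34), and each was called in both kinds of cells. Tnfrsf8, the receptor of the Tnfsf8 product, had 76 UMIs in PPARg-low cells and 16 in PPARg-negative cells, a ratio of 9.65 (5.58 to 17.7). Receptor and ligand of the CD30 pair thus went opposite ways between the libraries. Tnfrsf11a, which encodes RANK, had 0 UMIs in PPARg-low cells and 2 in PPARg-negative cells. Cd40 had 0 in PPARg-low cells and 1 in PPARg-negative cells, so the receptors of RANK ligand and CD40 ligand were at or near 0 in both. Cd27 had a ratio of 1.46 (1.38 to 1.53) and Tnfrsf25 one of 1.20 (1.03 to 1.38), neither of which was called.

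Of the signalling and adhesion partners, Traf2, an adaptor of these receptors, was higher at 2.14 (1.79 to 2.57) and in both kinds of cells. Slamf1 stood at 1.83 (1.54 to 2.18), and Cd48, the mouse ligand of CD2, at 1.65 (1.54 to 1.77). Klf2, a transcription factor of resting T cells, stood at 332 CPM in PPARg-low cells and 981 CPM in PPARg-negative cells, a ratio of 0.338 (0.316 to 0.362). S1pr1, the egress receptor that CD69 opposes, was lower at 0.491 (0.423 to 0.568), and Cd226 at 0.426 (0.256 to 0.679). These 3 were lower in both kinds of cells. Within ribosome-poor cells Slamf6 was also lower, at 0.549 (0.465 to 0.648), as was Prkcq, at 0.585 (0.442 to 0.773). Lck, the kinase bound to the CD4 tail, stood at 1.12 (1.06 to 1.18) over all cells and was not called.

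**Figure D5:**
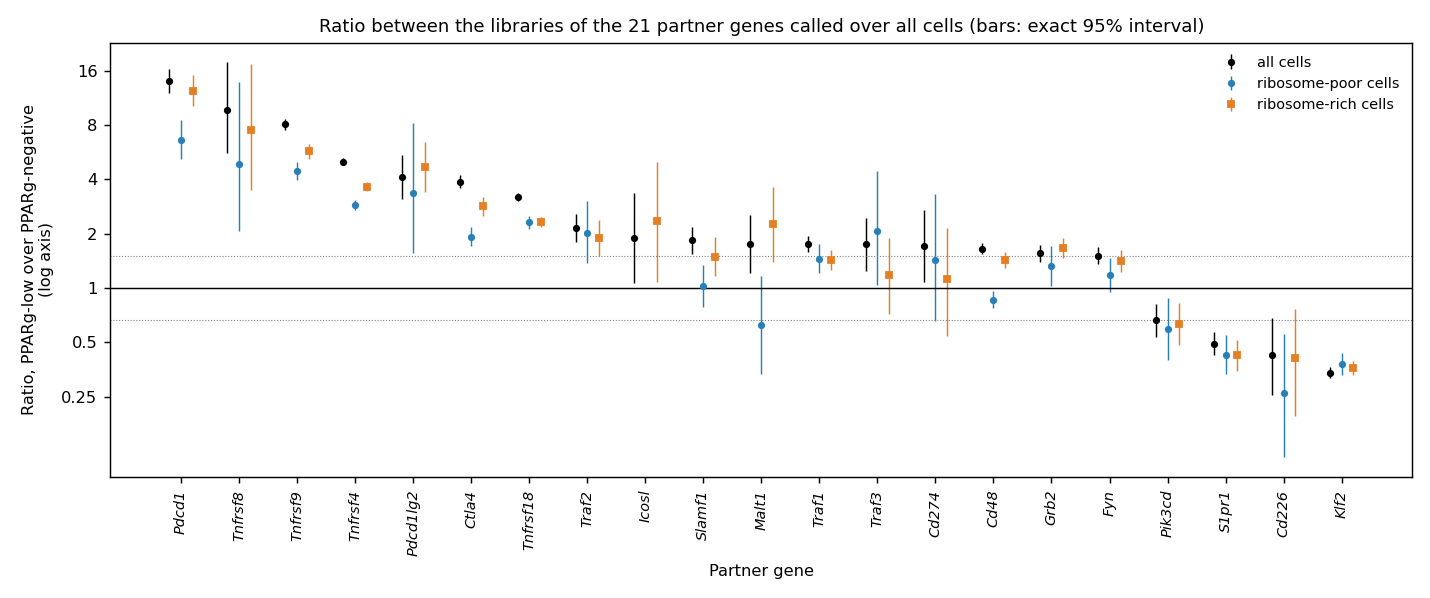
Ratio of CPM in the PPARg-low library over the PPARg-negative library (y axis, log scale) for the 21 partner genes called over all cells (x axis, in order of that ratio), over all cells and within ribosome-poor and ribosome-rich cells, where measured. Bars are exact 95% intervals and dotted lines mark a ratio of 1.5 in either direction; Pdcd1 stands at 13.9 and Klf2 at 0.338.

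Genes whose levels ran most like these 10 were looked for over 9 strata, the bins of ribosomal share in both libraries with 50 or more cells, among 3300 genes with 300 or more UMIs. The strata share their libraries and the gradient of ribosomal share, so the values describe these cells and carry no test. Cd80, with under 100 UMIs, was left out. Icos ran most like Tecr (Pearson r 0.989 of log2 levels) and Rab14 (0.985), and Cd28 like Arfgap2 (0.995) and Lbr (0.994). Cd2 ran like Ptprcap (0.995) and Vsir (0.995), and Cd69 like Icam1 (0.993) and Cbx6 (0.991). Cd83 ran most like Nadk (0.979) and next like Gata3 (0.967), a transcription factor on the list of effector Treg markers. Cd86 ran like Slc6a6 (0.986) and Dnajc3 (0.978), and Cd40lg like Gatad2b (0.982) and Coro2a (0.965). Tnfsf11 ran like Taf6l (0.954) and AU020206 (0.954). Tnfsf8 ran less closely with its 2 genes, Arid5a (0.887) and Gpr83 (0.885), a receptor gene on the list of resting Treg markers.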

How the data were processed

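Per the labels' protocols, cells from 2 or 3 pooled spleens were sorted and run on the droplet platform Chromium Single Cell 3′ v2. The authors deposited raw UMI counts by gene and barcode, which the submitters' processing notes credit to Cell Ranger 2.1.0 and mm10. The PPARg-low label is followed here although the name of that deposited file says pos, and which is right could not be settled. GENCODE M21 held 28339 of the 28692 gene identifiers.

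Of 1992 PPARg-low and 2902 PPARg-negative barcodes, 373 and 269 had over 10% mitochondrial UMIs and were dropped. Doublets marked by Scrublet (scanpy 1.11.5), 11 (0.679%) and 8 (0.304%), stayed in. The libraries had 5 barcodes in common. Summed UMIs were turned into CPM with exact Poisson intervals, ratios got exact conditional binomial intervals and shares exact binomial ones. A gene at 0 in 1 arm entered at 3 counts. The weighed ratios use the UMIs of each ribosomal bin of the PPARg-low library as weights and a normal interval on the log scale. The 102 ribosomal protein genes were found by symbol. Clusters were made without the 10 genes (counts per 10000 on a log scale, 2000 variable genes, 20 components, 15 neighbours, leidenalg 0.10.2 at resolution 1.0), were named when 3 or more of their 10 leading genes were on a marker list, and were not compared in size. Likeness is Pearson's r of log2(CPM + 10).

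In counts simulated for 9224 genes over all cells, 95.9% of unchanged genes and 97.5% of 200 changed ones had their true ratio inside the interval; variation between cells, mice and libraries was not simulated. The 10 genes, the partner genes and the split at 20% were chosen with earlier results of these data known. Genes named are the 10, measured partner genes, Pparg, Foxp3 and Klrg1, and genes that mark cell types or lead clusters. The 2 genes most like each of the 10, Cd80 aside, are named too. Tnfrsf11a and Cd40, partner genes below the UMI minimum, were added once their values were known. Alternatives covered cell filters, doublets, marker-bearing cells, scaling, the weight of cells, thresholds, the split and thinning. The software was Python 3.11.15 with numpy 2.4.6, pandas 2.3.3, scipy 1.17.1 and matplotlib 3.10.9. Results for some marker and partner genes are not reported here.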

Additional observations from a re-analysis of the deposited data

Results flagged for a closer look

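Cd48, which encodes the mouse ligand of CD2, had a ratio of PPARg-low over PPARg-negative of 0.860 (0.775 to 0.956) in ribosome-poor cells and of 1.42 (1.29 to 1.57) in ribosome-rich cells. It was marked because the intervals lie on opposite sides of 1, and the difference itself was not tested. The levels were 776 CPM in PPARg-low and 902 CPM in PPARg-negative ribosome-poor cells, and 334 CPM in PPARg-low and 234 CPM in PPARg-negative ribosome-rich cells.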

How the results depend on the processing

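Over all cells 7 of the 10 genes were called, and weighing the PPARg-negative cells to the ribosomal shares of the PPARg-low library gave 4, of which Cd83, Tnfsf11 and Tnfsf8 were among the 7 and Cd40lg was not, with Icos at 0.966, on the other side of 1; the other 10 alternatives gave 5 to 7. In ribosome-poor cells 4 were called, against 2 with a mitochondrial maximum of 5%, with at least 500 genes per cell or with the split at 15%, and 1 with a minimum of 100 UMIs, which leaves 5 genes measured; Cd40lg turned to 1.76 at the 5% maximum. In ribosome-rich cells the count of 5 was 2 with the shares weighed alike inside the class (chosen after seeing the data) and otherwise lay between 4 and 6. Of the 8 genes higher in ribosome-poor than ribosome-rich PPARg-low cells, 5 were called at the 5% maximum, without ribosomal and mitochondrial UMIs in the total, and relative to the median of all genes (chosen after seeing the data). Of the 9 in PPARg-negative cells, 4 were called at the 5% maximum, where Cd40lg turned to 0.395 and Tnfsf11 to 0.884. The count of 21 partner genes was 11 at a fold of 2. The cause was not tested beyond the smaller number of cells or genes that each stricter limit leaves. The share of all genes called was computed only for the alternatives beside which it is given above. No paired analysis was possible because each group has 1 library. Genes with under 100 UMIs in each library, such as Cd80, Cd86 and Cd40lg, are limited by depth.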
